A study of Mus musculus with 8 samples.

Results

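The expression of 10 genes of ion channels and calcium entry is described here in T29, a line of thymic lymphoma cells from the mouse that lacks Ikaros according to the series' description. The genes are Kcna2, Kcna3, Kcnn4, Scn4b, Mcoln3, Mcoln1, Orai1, Stim1, Stim2 and Trpm7, out of 18193 genes tested. A probe set was counted for a gene if the platform annotation gives it that symbol and no other, which found all 10 genes on 23 of 45101 probe sets. Where a gene had several, the brightest on average stood for it. The groups were Ik1ER cells with 4OHT, Ik1ER cells with ethanol, MigR1 cells with 4OHT and MigR1 cells with ethanol, with 2 arrays each. Ik1ER cells carried the retroviral vector MigR1 with an Ikaros protein made inducible by 4-hydroxytamoxifen (4OHT), and MigR1 cells carried the vector alone, so that all 4 groups were transduced. The 4OHT groups received 100 nM 4OHT for 24 h and the ethanol groups its solvent for 24 h. The labels describe 1 cell line, do not say whether the transduced cells were a clone, and do not say that replicates were grown separately. Errors and p-values therefore cover array-to-array spread only, part or all of which may be technical.

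Ion channels set the membrane potential of a T cell and with it the pull on calcium. Emptying of the endoplasmic reticulum is sensed by STIM proteins, which open ORAI channels in the plasma membrane, and the calcium that enters drives calcineurin and NFAT. Potassium channels keep the inside of the cell negative while calcium enters, whereas TRPML channels release cations from endosomes and lysosomes.

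The members were chosen by name with their measured log2 differences between 4OHT and ethanol in Ik1ER cells in view, in which Kcna2, Mcoln3 and Scn4b were already known to differ widely. Their values in that comparison, and in every comparison that uses Ik1ER arrays, are therefore given as a description without a test. All values are log2 expression values made with RMA, and a level of one probe set is not comparable with that of another. The highest mean among 27 Bacillus control probe sets (5.27) served as a gauge of background. Of the 4 Ik1ER arrays, both replicate 2 arrays stood apart in the only RNA quality control examined. For the transferrin receptor, the 3' end read 1.91 (4OHT) and 1.66 (ethanol) above the 5' end on them, against 1.15 to 1.39 on the other 6 arrays. Of the 2 probe sets of Ikzf1, the gene of Ikaros, one read 10.45 to 11.27 on the Ik1ER arrays, against 8.12 to 8.51 on the MigR1 arrays. The other did not separate the lines, averaging 10.11 and 10.30 in Ik1ER cells with 4OHT and with ethanol, against 10.28 in both MigR1 groups. Array medians ranged from 5.36 to 5.43, and the number of arrays limits the precision. Of the 9 T lineage markers 8 were measured, all above the Bacillus gauge (means of 7.21 to 13.42). Of the markers of other cell types, 1 of 4 for the B lineage, 2 of 5 myeloid, 2 of 5 neuronal and 2 of 5 muscle markers exceeded it. The muscle list averaged 4.77 to 4.95 on the Ik1ER 4OHT arrays, against 4.60 to 4.70 on the other 6, and of its 5 genes only Actn2 was called with 4OHT against ethanol in Ik1ER cells (0.93, limma adjusted p = 0.00676). In the same comparison limma called Itgam higher (0.54, adjusted p = 0.0206) and Lyz2 lower (-0.60, adjusted p = 0.0222) among the myeloid markers. Itgam averaged 4.91 with 4OHT and 4.38 with ethanol, below the gauge. Lyz2 averaged 4.98 and 5.58, on either side of it, so that both sizes are uncertain. Called were also 2 T lineage markers higher (Cd4 by 0.72 and Cd8a by 1.84) and 4 lower (Cd3d, Cd3e, Cd3g and Ptcra, -0.69 to -0.43), and 0 of the B lineage and neuronal markers. The part of these genes in the values below was not tested. In bulk RNA, fewer cells of a kind and less RNA per cell cannot be told apart.

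Windows upstream of the start of transcription are shown for the genes that the results below turn on, namely the adjacent pairs Kcna2 with Kcna3 and Scn4b with Scn2b, and Mcoln3. Each is the 250 bases before the start given by RefSeq (GRCm38.p6), read along the plus strand, on which all of these genes lie. They are chr3:107101317-107101566 for Kcna2, chr3:107035912-107036161 for Kcna3, chr3:146121541-146121790 for Mcoln3, chr9:45138374-45138623 for Scn4b and chr9:45117626-45117875 for Scn2b. The starts used for Kcna2 and Mcoln3 lie inside the wider annotated span of these genes, so that other starts exist. Capitals mark GGGAA or its reverse complement TTCCC, a motif that holds the GGGA core bound by Ikaros zinc fingers.
Kcna2: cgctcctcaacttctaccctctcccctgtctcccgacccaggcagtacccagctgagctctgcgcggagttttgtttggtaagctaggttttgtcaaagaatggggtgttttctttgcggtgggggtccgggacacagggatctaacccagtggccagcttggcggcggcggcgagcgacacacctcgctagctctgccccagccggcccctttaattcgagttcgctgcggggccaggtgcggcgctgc
Kcna3: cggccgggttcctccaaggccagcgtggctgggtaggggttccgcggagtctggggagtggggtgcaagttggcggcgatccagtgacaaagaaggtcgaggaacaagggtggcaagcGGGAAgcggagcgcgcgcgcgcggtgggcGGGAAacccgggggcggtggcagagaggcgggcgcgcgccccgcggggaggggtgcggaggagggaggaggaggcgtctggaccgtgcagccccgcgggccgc
Mcoln3: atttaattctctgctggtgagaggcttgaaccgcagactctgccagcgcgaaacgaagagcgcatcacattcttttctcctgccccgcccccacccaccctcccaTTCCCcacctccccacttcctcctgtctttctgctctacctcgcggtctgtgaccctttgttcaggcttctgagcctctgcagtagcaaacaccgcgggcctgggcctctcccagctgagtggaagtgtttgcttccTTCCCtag
Scn4b: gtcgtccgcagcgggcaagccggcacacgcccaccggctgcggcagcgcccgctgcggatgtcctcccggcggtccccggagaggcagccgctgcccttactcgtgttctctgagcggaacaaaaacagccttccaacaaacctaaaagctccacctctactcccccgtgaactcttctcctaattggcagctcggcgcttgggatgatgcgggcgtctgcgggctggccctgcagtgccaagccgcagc
Scn2b: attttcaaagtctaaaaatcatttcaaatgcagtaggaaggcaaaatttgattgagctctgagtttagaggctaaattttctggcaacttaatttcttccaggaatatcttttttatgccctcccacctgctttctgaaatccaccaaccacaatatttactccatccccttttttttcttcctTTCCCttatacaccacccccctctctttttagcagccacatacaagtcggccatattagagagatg
On either strand, GGGAA was found in the windows of 6 of the 10 genes and of 56.2% of all 32851 windows in the table. The longer TGGGAA, which contains GGGAA, was found in 1 of the 10, that of Stim2, and in 21.6% of all windows. The windows of Kcna2 and Scn4b held no GGGAA, those of Kcna3 and Mcoln3 held 2 each, and that of Scn2b held 1. The GGGA core without a second A after it was neither marked nor counted. It does occur, in lower case, in the windows of Kcna2 (as GGGAT and GGGAC) and Scn4b (as GGGAT). A match of letters is a description and not a binding site.

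The channel genes split into a few with wide differences and others that differed little between 4OHT and ethanol in Ik1ER cells. In Ik1ER cells, 3 of the 10 genes differed between 4OHT and ethanol by at least 1 on the log2 scale, 2 higher (Kcna2 and Mcoln3) and 1 lower (Scn4b), beside 0.912% of all genes (0.473% higher and 0.44% lower). Since the members were chosen with this comparison known, nothing is read from that count. The arrays of the 2 groups did not overlap for 5 members with higher and 2 with lower values in 4OHT, beside 21.1% and 21.6% of all genes. The median difference of the 10 was 0.20, against a median of -0.004 over all genes.

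Among the potassium channels, Kcna2 and Kcna3 read higher in Ik1ER cells with 4OHT, and Kcnn4 hardly differed. Kcna2 encodes a voltage-gated potassium channel alpha subunit best known from neurons. At the probe set that stands for the gene it read 6.88 and 6.44 in Ik1ER cells with 4OHT, against 4.58 and 4.71 in Ik1ER cells with ethanol. MigR1 cells read 4.84 and 5.13 with 4OHT, against 4.41 and 4.75 with ethanol. Both Ik1ER 4OHT arrays thus lay above all other 6 arrays, and these 6 were below the Bacillus gauge. The difference in Ik1ER cells was 2.02 (SE 0.17), the 6th highest of 18193 genes, and since it starts at background its true size is uncertain. The other 3 probe sets of Kcna2 all averaged under the gauge in every group. Of these, one was 0.58 (SE 0.11) and another 0.37 (SE 0.09) higher with 4OHT in Ik1ER cells, with no overlap of arrays. The remaining one read 4.51 and 4.51 with 4OHT, against 4.58 and 4.64 with ethanol. Averaged over its 4 probe sets, the difference of Kcna2 was 0.72.

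Kcna3 encodes the voltage-gated potassium channel that dominates the resting conductance of human T cells. It read 8.60 and 8.64 in Ik1ER cells with 4OHT, against 7.94 and 7.91 with ethanol. MigR1 cells read 8.14 and 8.16 with 4OHT, against 8.12 and 8.15 with ethanol. Replicate arrays lay close together in every group (SD of at most 0.03), and the 2 Ik1ER groups stood on either side of the MigR1 arrays. The difference in Ik1ER cells was 0.69 (SE 0.07, 1.61-fold). Kcnn4, which encodes the calcium-activated potassium channel of lymphocytes, gave no such picture. Its level was 11.05 ± 0.02 in Ik1ER cells with 4OHT and 11.04 ± 0.01 with ethanol (SD, n = 2 each). In MigR1 cells it was 11.05 ± 0.10 with 4OHT and 11.10 ± 0.04 with ethanol (SD, n = 2 each). The difference in Ik1ER cells was 0.01 (SE 0.08), and a second probe set of Kcnn4 averaged 9.72 in both Ik1ER groups.

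Scn4b, an auxiliary beta subunit that modulates voltage-gated sodium channels in nerve and muscle, had the widest difference of the 10. It read 7.91 and 8.26 in Ik1ER cells with 4OHT, against 10.83 and 11.02 with ethanol. MigR1 cells read 10.57 and 10.38 with 4OHT, against 10.63 and 10.58 with ethanol. The transcript was thus bright on the other 6 arrays. Within Ik1ER cells it was dimmer by 2.84 (SE 0.13) with 4OHT than with ethanol, or 7.15-fold lower. Only 4 of 18193 genes had a lower difference. A level of 8.09 ± 0.25 (SD, n = 2) remained above the gauge, and Scn4b has no second probe set with a single symbol to set beside it.

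The TRPML channels differed from each other. Mcoln3, an endolysosomal cation channel whose mutation causes deafness and pigment defects in the varitint-waddler mouse, read 8.33 and 7.58 in Ik1ER cells with 4OHT, against 6.11 and 5.86 with ethanol. MigR1 cells read 6.42 and 5.92 with 4OHT, against 6.23 and 5.76 with ethanol. The Ik1ER 4OHT arrays were the highest of the 8, and replicate 2 read below replicate 1 in all 4 groups. The difference in Ik1ER cells was 1.97 (SE 0.27, 3.92-fold). Its second probe set read 7.71 and 6.70 with 4OHT, against 5.85 and 5.52 with ethanol, a difference of 1.52 (SE 0.31). Mcoln1, the broadly expressed lysosomal member whose human counterpart is mutated in mucolipidosis, averaged 8.23 ± 0.06 in Ik1ER cells with 4OHT and 8.17 ± 0.12 with ethanol (SD, n = 2 each). All 3 probe sets of Mcoln1 had overlapping arrays in that comparison, with differences of 0.03 to 0.06.

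**Figure D1:**
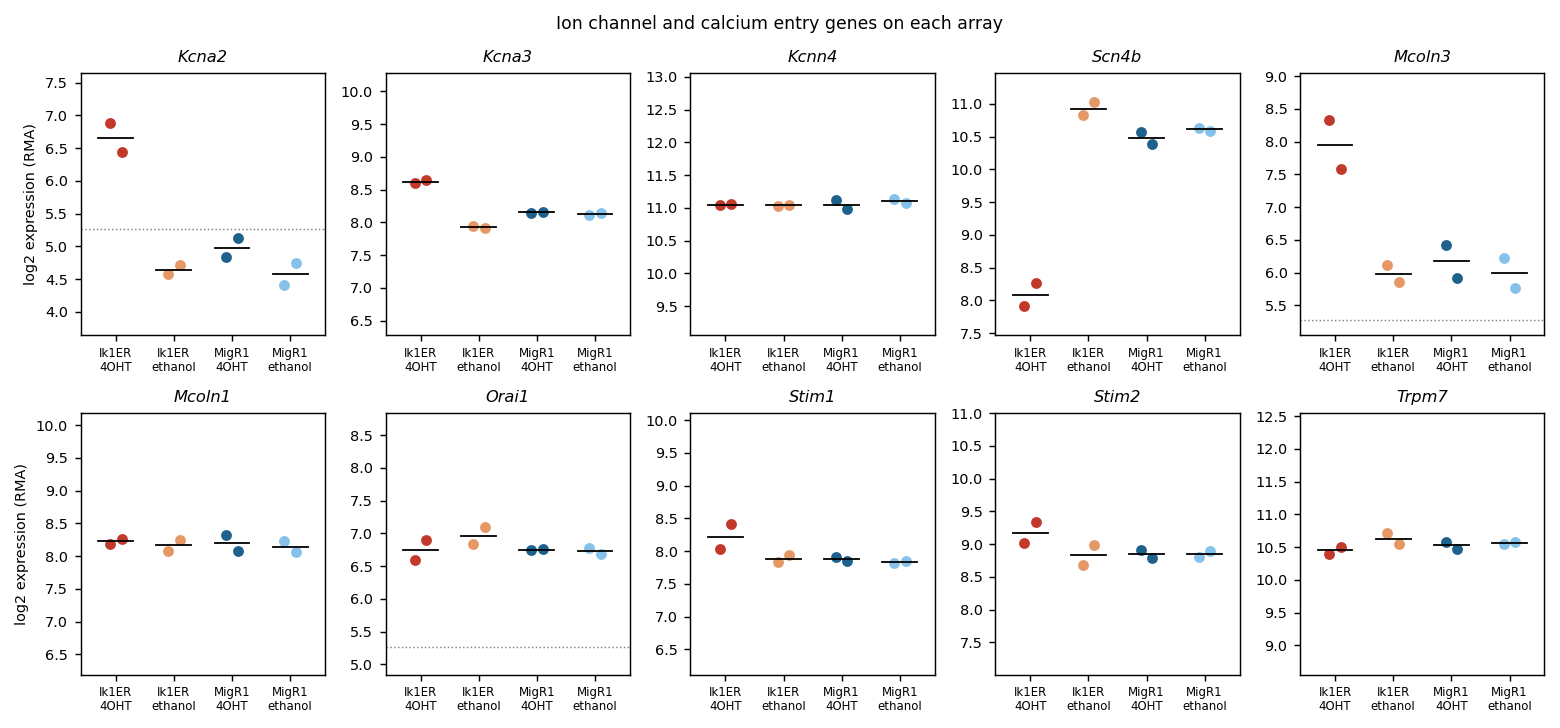
Log2 expression (RMA) of the 10 genes on each array, at the probe set that stands for the gene. Dots are the 2 arrays of a group, bars their mean, every panel spans 4 log2 units, and the dotted line, where in range, is the highest Bacillus control mean (5.27). Kcna2, Kcna3 and Mcoln3 are highest, and Scn4b lowest, on both Ik1ER 4OHT arrays.

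The core genes of store-operated calcium entry differed little. Stim1, a calcium sensor of the endoplasmic reticulum, read 8.03 and 8.42 in Ik1ER cells with 4OHT, against 7.83 and 7.94 with ethanol. MigR1 cells read 7.91 and 7.85 with 4OHT, against 7.82 and 7.85 with ethanol. The Ik1ER 4OHT arrays were the 2 highest, yet they differed from each other by more than the difference of 0.34 (SE 0.12). A second probe set of Stim1 differed by 0.10 (SE 0.08). Stim2, the more sensitive sensor that answers small losses of stored calcium, read 9.01 and 9.33 with 4OHT, against 8.69 and 8.98 with ethanol. This difference was also 0.34 (SE 0.13), and the lower 4OHT array exceeded the higher ethanol array by a margin far inside the spread of either group. A second Stim2 probe set differed by 0.09 (SE 0.16). Orai1, the pore of the channel that STIM proteins open, read 6.59 and 6.90 with 4OHT, against 6.83 and 7.09 with ethanol. Its Ik1ER groups overlapped, and the difference was -0.22 (SE 0.12). MigR1 cells read 6.74 and 6.75 with 4OHT, against 6.78 and 6.69 with ethanol. With 4OHT both lines averaged 6.75, and the group mean that stood apart was that of Ik1ER cells with ethanol (6.96). Within Ik1ER cells the sensors thus lay slightly higher and the pore slightly lower with 4OHT than with ethanol. Each difference was within about the distance between replicate arrays, and with 4OHT the pore was not lower than in MigR1 cells.

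Trpm7, a channel fused to a kinase that carries magnesium and calcium and is needed for thymocyte development in mice, read 10.40 and 10.50 in Ik1ER cells with 4OHT, against 10.71 and 10.55 with ethanol. The difference of -0.18 (SE 0.09) was small, and the 4 probe sets of the gene did not point one way. The other 3 differed by -0.08 (SE 0.08), 0.32 (SE 0.15) and -0.18 (SE 0.35). Groups did not overlap at the probe set with the value of -0.08, which was lower with 4OHT, nor at that with 0.32, which was higher.

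**Figure D2:**
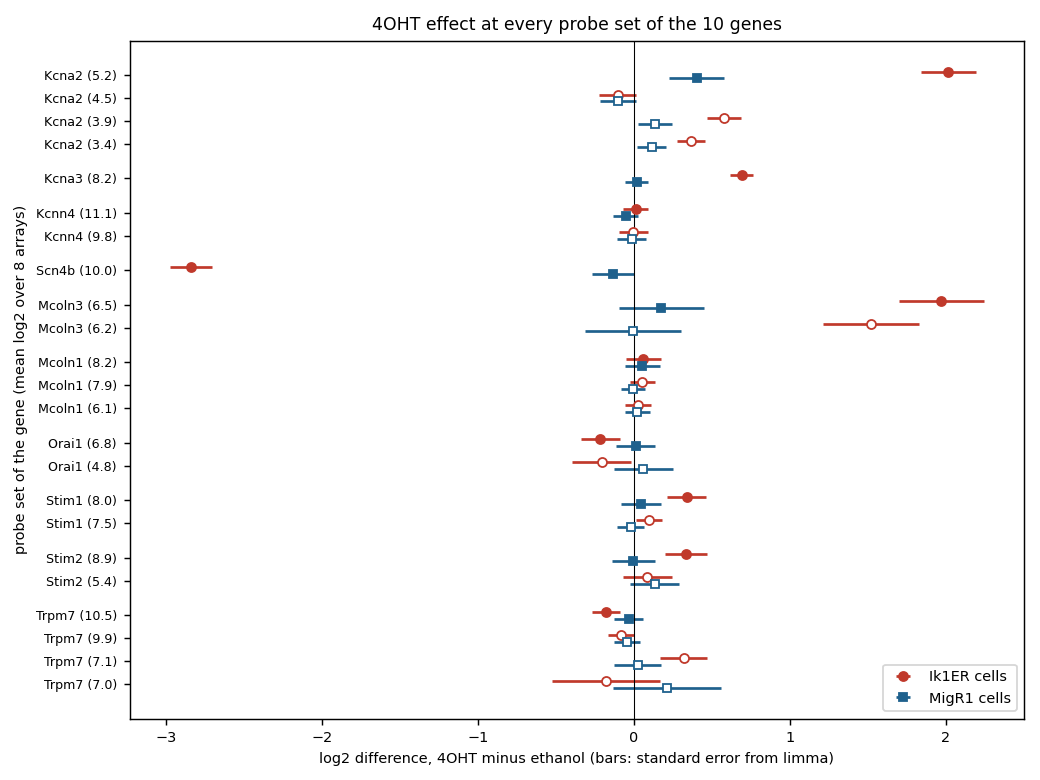
Log2 difference, 4OHT minus ethanol, at every probe set of the 10 genes in Ik1ER cells (circles) and MigR1 cells (squares). Filled symbols are probe sets that stand for the gene, bars are standard errors from limma, and the number after each name is the mean log2 level over 8 arrays. Both Mcoln3 probe sets lie above 1 in Ik1ER cells, whereas the 4 Kcna2 probe sets range from -0.10 to 2.02.

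An alternative chosen after seeing the data left out both replicate 2 arrays of the Ik1ER line, so that 1 array stood against 1. The differences in Ik1ER cells were then 2.30 for Kcna2, 2.22 for Mcoln3, 0.65 for Kcna3 and -2.92 for Scn4b. Those of Stim2 and Orai1 were 0.32 and -0.24. For the other 4 genes they were 0.20 for Stim1, -0.31 for Trpm7, 0.11 for Mcoln1 and 0.0065 for Kcnn4. Only the values of Kcna2, Kcna3 and Trpm7 moved by more than the SD of replicate arrays within the Ik1ER groups. Stim1 also ranged from 0.15 to 0.53, Stim2 from 0.18 to 0.50, Orai1 from -0.37 to -0.06 and Trpm7 from -0.26 to -0.10 when single arrays were left out. The lowest value of Stim1 was reached without Ik1ER 4OHT replicate 2 and the highest without Ik1ER 4OHT replicate 1.

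The 10 genes were tested for 4OHT against ethanol in MigR1 cells, whose arrays did not enter the comparison that chose the members. limma called none of the 10 genes there, with an adjusted p of 1 for each, while 1 of 18193 genes was called (0.0055%). At an unadjusted p under 0.05 there were also 0 of the 10, beside 386 genes in all (2.12%). Kcna2 came closest, at 0.40 (SE 0.17, 95% interval from -0.0007 to 0.80, unadjusted p = 0.0503, limma), with both 4OHT arrays above both ethanol arrays. This was the 7th highest difference of 18193 genes in MigR1 cells. It was 0.23 without MigR1 ethanol replicate 1, 0.26 without MigR1 4OHT replicate 2, 0.58 without MigR1 ethanol replicate 2 and 0.14 as the mean over its probe sets. The arrays of the 2 MigR1 groups did not overlap for 2 members on the higher side (Kcna2 and Stim1) and 1 on the lower side (Scn4b), beside 16.7% and 13.1% of all genes. All 4 MigR1 readings of Kcna2 were below the Bacillus gauge. Mcoln3 differed by 0.18 (95% interval from -0.44 to 0.79) and Scn4b by -0.13 (95% interval from -0.43 to 0.17). For Kcna3 the difference was 0.02 (95% interval from -0.14 to 0.17). The other 6 genes had differences of -0.05 to 0.06, and the widest of their intervals, that of Stim2, ran from -0.31 to 0.30.

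Setting the effect of 4OHT in Ik1ER cells against that in MigR1 cells left the same 3 genes past 1 on the log2 scale, beside 0.896% of all genes. The difference of effects was 1.61 (SE 0.25) for Kcna2, 1.80 (SE 0.38) for Mcoln3 and -2.71 (SE 0.18) for Scn4b, and 0.67 (SE 0.10) for Kcna3. Compared directly in 4OHT, Ik1ER cells lay 1.68 above MigR1 cells for Kcna2, 1.78 for Mcoln3 and 0.47 for Kcna3, and Scn4b lay at -2.39. Past 1 on the log2 scale were 3 of the 10, beside 0.808% of all genes, and without overlap of arrays 5 on the higher and 1 on the lower side, beside 22.1% and 22.6%. These comparisons share the Ik1ER 4OHT arrays, so that they are not separate evidence.

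In ethanol, where Ik1ER was present but not induced, none of the 10 genes differed between the lines by 1 on the log2 scale, beside 0.011% of all genes. Scn4b was the furthest apart, at 0.32 (SE 0.13), with both Ik1ER arrays above both MigR1 arrays. Kcna3 differed by -0.21 (SE 0.07), with both Ik1ER arrays below both MigR1 arrays. Orai1 differed by 0.23 (SE 0.12), with both Ik1ER arrays above both MigR1 arrays. For each, the line difference without induction ran opposite to the effect of 4OHT in Ik1ER cells, and the Ik1ER ethanol arrays enter both values with opposite sign. The arrays of the lines did not overlap in ethanol for 2 members on the higher side (Scn4b and Orai1) and 2 on the lower side (Kcna3 and Kcnn4), beside 20.7% and 16.8% of all genes.

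Other genes of the same systems were taken from a list of 77 by function, of which 68 were measured. This list too was drawn up with earlier results of these data known. Its counts and p-values are therefore not an independent check on the members. In Ik1ER cells with 4OHT, limma called 2 higher and 3 lower and left 63 uncalled, or 7.35% called, beside 5.35% of all genes (2.84% higher and 2.51% lower). The median difference of the list was 0.002, against -0.004 over all genes. In MigR1 cells 0 of the 68 were called by limma, and 0 had an unadjusted p under 0.05.

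Scn2b, which like Scn4b encodes an auxiliary beta subunit of sodium channels, fell most. It read 8.17 and 8.10 in Ik1ER cells with 4OHT, against 9.93 and 9.76 with ethanol. MigR1 cells read 9.88 and 9.93 with 4OHT, against 9.92 and 10.00 with ethanol. Both Ik1ER 4OHT arrays were well below the other 6, and the difference was -1.71 (SE 0.08, 3.27-fold lower, limma adjusted p = 8.44e-05). A second Scn2b probe set read nearly the same (-1.72, SE 0.19), while another, dim one, averaging 4.30, differed by 0.04, and the mean over the 3 gave -1.13. No other sodium channel gene was called among the 10 measured. All the others averaged below the Bacillus gauge, from 3.30 for Scn3a to 4.87 for Scn8a, so that a fall in them could not be seen.

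Trpv2, a calcium-permeable TRP channel abundant in immune cells, rose by 0.93 (SE 0.08, limma adjusted p = 0.00105), reading 9.66 and 9.71 in Ik1ER cells with 4OHT, against 8.69 and 8.84 with ethanol. Atp2a3, a pump that refills the endoplasmic reticulum with calcium in blood cells, rose by 0.86 (SE 0.10, limma adjusted p = 0.00303). It read 9.01 and 8.97 with 4OHT, against 8.19 and 8.08 with ethanol. Without both replicate 2 arrays of Ik1ER, which leaves 1 array per Ik1ER group, the difference was 0.82 and the call was lost. A second Atp2a3 probe set differed by 0.53 (SE 0.13) and was not called. Trpm4, a calcium-activated channel for monovalent cations that lowers the drive for calcium entry, changed by -0.53 (SE 0.10, limma adjusted p = 0.0186). It read 6.14 and 6.02 with 4OHT, against 6.51 and 6.71 with ethanol. Orai3, a relative of Orai1, changed by -0.46 (SE 0.08, limma adjusted p = 0.0156), reading 7.66 and 7.81 with 4OHT, against 8.17 and 8.21 with ethanol.

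The call of Trpm4 was lost without Ik1ER 4OHT replicate 2 (difference of -0.47), Ik1ER ethanol replicate 2 (-0.43) or both replicate 2 arrays of Ik1ER (-0.37). That of Orai3 was lost without Ik1ER 4OHT replicate 1 (-0.38), Ik1ER ethanol replicate 1 (-0.48) or replicate 2 (-0.44), or both replicate 2 arrays of Ik1ER (-0.51). Each of these fits leaves only 1 array in an Ik1ER group, so that differences are given without p-values. Both calls were also lost where only the arrays of the groups compared were fitted (0.0796 for Trpm4 and 0.0828 for Orai3). Orai2, the remaining ORAI gene, differed by 0.43 and was not called (limma adjusted p = 0.119). By group, 0 of 8 measured subunits of voltage-gated potassium channels, 0 of 4 calcium-activated potassium channels, 0 of 3 purinergic channels, 0 of 4 genes of mitochondrial calcium uptake, 0 of 9 of calcineurin and NFAT and 0 of 2 of magnesium transport were called. At an unadjusted p under 0.05 they numbered 0, 0, 2, 1, 0 and 2, beside 17.6% of all genes and 15 of the 68 in Ik1ER cells. The called genes were 1 of 10 for sodium channels, 2 of 13 for TRP and endolysosomal channels, 1 of 5 for store-operated entry and 1 of 10 for calcium stores and pumps. An uncalled gene is not thereby a steady one. Several averaged below the Bacillus gauge, such as Kcna4 (4.13), Kcna5 (3.32), Kcnn2 (4.46) and Ppp3cc (3.89).

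**Figure D3:**
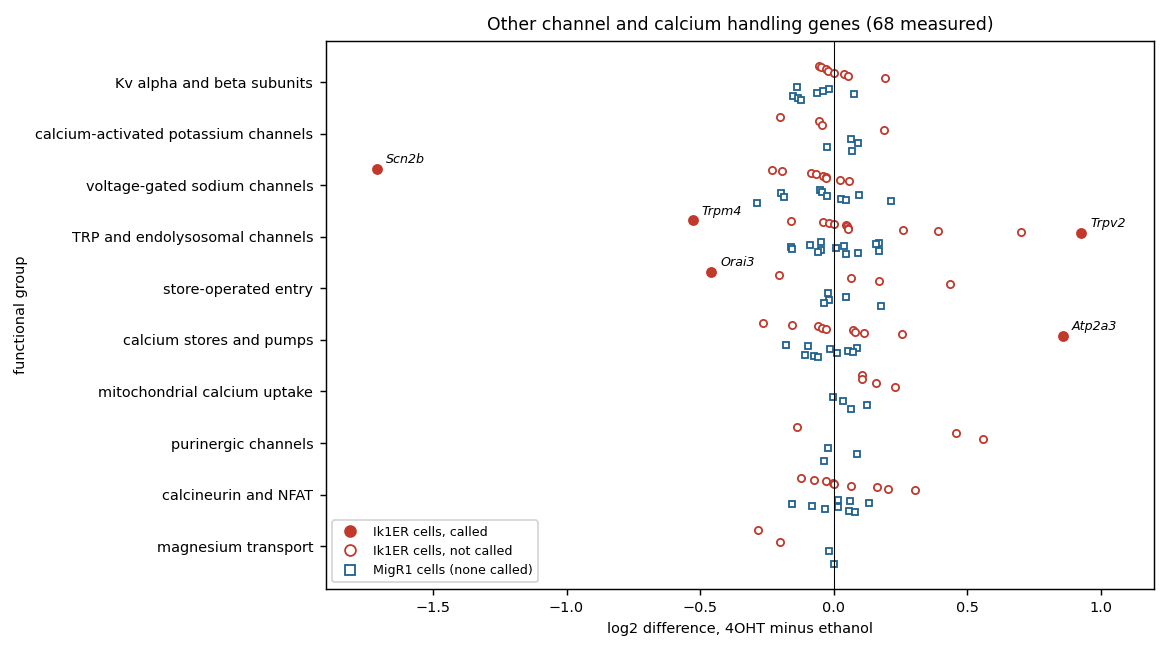
Log2 difference, 4OHT minus ethanol, of 68 other channel and calcium genes by functional group (Kv, voltage-gated potassium channel). Circles are Ik1ER cells, filled where limma called the gene, and squares are MigR1 cells, in which none was called. Scn2b lies at -1.71, apart from the rest of the sodium channel genes, which all averaged below the Bacillus gauge.

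Kcna2 and Kcna3, Scn4b and Scn2b, and Mcoln3 and Mcoln2 each neighbour one another in gene order (GRCm38.p6), which was looked up after the value of Scn2b was seen. In each pair the 2 genes differed in the same direction with 4OHT in Ik1ER cells. Kcna2, Kcna3, Mcoln3 and Scn4b were chosen with this comparison known, and the lookup followed the value of Scn2b. How often adjacent genes share a direction among all genes was not computed, so that nothing is read from this agreement. Mcoln2, the TRPML channel beside Mcoln3, read 7.91 and 7.34 with 4OHT, against 7.10 and 6.75 with ethanol. Its difference of 0.70 (SE 0.19, limma adjusted p = 0.0873) was not called. Without Ik1ER 4OHT replicate 1 it was 0.42, and without Ik1ER 4OHT replicate 2 it was 0.98, each with only 1 array left in that group. Of the 36 other protein-coding genes within 2 places of any of the 10, 30 were measured, and limma called 2 higher and 1 lower, beside 2.84% and 2.51% of all genes. The lower one was Scn2b. Cym, the gene of the milk-clotting protease chymosin, lies on the far side of Kcna10 from Kcna2 and differed by 1.15 (SE 0.15, adjusted p = 0.00465). Its mean of 5.27 over the 8 arrays is at the Bacillus gauge, so that its size is uncertain. Tmem120b, 2 places from Orai1, differed by 1.26 (SE 0.15, adjusted p = 0.00302), beside -0.22 for Orai1. Tmprss4, on the other side of Scn4b, differed by -0.06 and was not called. Syde2, Wdr63 and Lpar3 around Mcoln3 differed by -0.17 to -0.02 and were not called either.

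**Figure D4:**
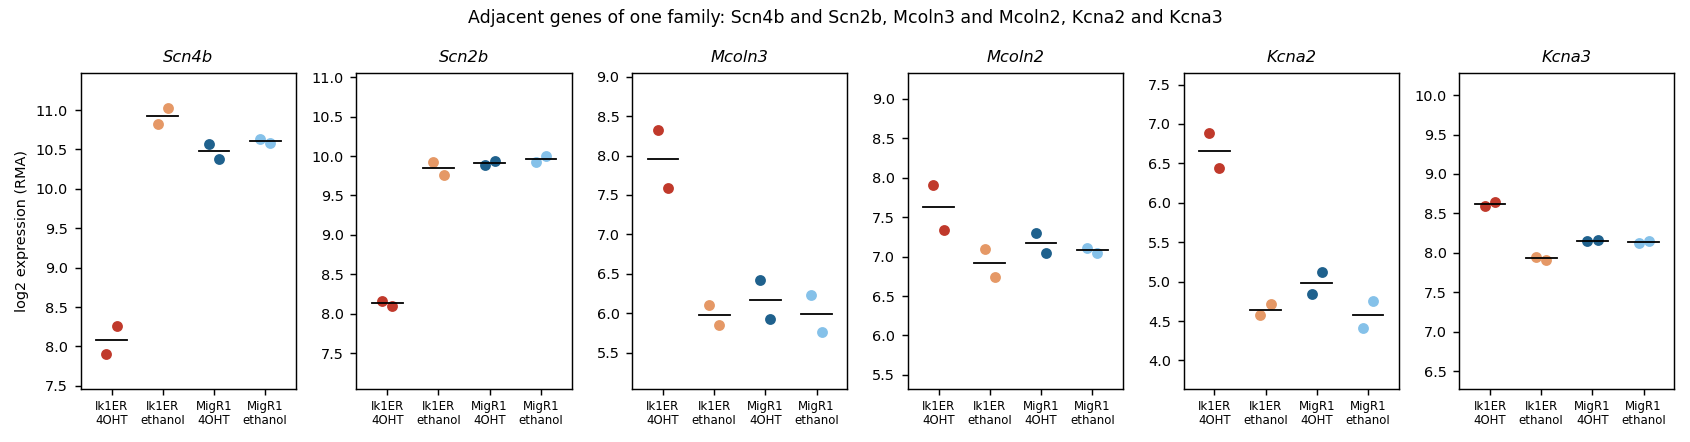
Log2 expression (RMA) on each array for 3 pairs of adjacent genes, with dots for the 2 arrays of a group, bars for their mean and 4 log2 units in every panel. Scn4b and Scn2b are both lowest, and Kcna2 and Kcna3 as well as Mcoln3 and Mcoln2 have their highest readings, on the Ik1ER 4OHT arrays.

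The genes most like each of Kcna2, Mcoln3 and Scn4b were found by the root mean square distance between centred log2 values over the 8 arrays. For Kcna2 they were Serpini1 (0.148), Igfbp7 (0.159) and Ms4a6b (0.222). For Mcoln3 they were Maf (0.144), Tktl1 (0.169) and the coreceptor gene Cd8a (0.19). For Scn4b they were 2300002M23Rik (0.0942), Lmcd1 (0.118) and Uaca (0.239). The 8 arrays are shared by all of these genes, so that the distances describe the arrays and carry no test.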

How the data were processed

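RNA of T29 cells was measured on Affymetrix arrays. The authors deposited 1 column of log2 expression values per array, and the submitters' processing notes name RMA. Neither its version nor a genome build was found in the labels or headers. RMA compresses differences of dim genes and hides a global shift. Gene names came from the platform annotation.

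Probe sets with 1 symbol (34945) were used, and the one of highest mean stood for its gene, with those ending in _x_at taken only where no other existed (18193 genes). No filter on dim genes was applied. limma 3.58.1 (lmFit and eBayes) estimated a mean per group from the 8 arrays together, in R 4.3.3 (4 residual degrees of freedom), checked on simulated data. P-values were adjusted over all genes by the method of Benjamini and Hochberg, and an adjusted p under 0.05 was called. Errors beside means are SD and those beside differences are limma standard errors.

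The members and lists were chosen with earlier results of these data known. Named are the 10 members, list genes called in Ik1ER cells, the 3 nearest genes to each of Kcna2, Mcoln3 and Scn4b, and, after their values were seen, Orai2, marker genes and genes neighbouring members. Alternatives were a replicate block, a filter on dim genes, trend and robust moderation, repeated quantile normalization, median centring, the mean over probe sets, _x_at probe sets on the same footing, only the arrays compared, a minimum difference of 0.5, and leaving out arrays. Upstream windows came from RefSeq (GRCm38.p6), matched by symbol for 10 of 10 members.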

Additional observations from a re-analysis of the deposited data

Results flagged for a closer look

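For 3 genes outside the 10 members, the effect of 4OHT differed between the Ik1ER and MigR1 lines by a test of the difference itself (limma, adjusted over all genes, beside 1.26% of all genes called in this way). They come from the wider list, which was drawn up with earlier results of these data known. The difference of effects was -1.66 for Scn2b (SE 0.12, adjusted p = 0.00138), with -1.71 in Ik1ER cells and -0.05 in MigR1 cells. For Trpv2 it was 0.88 (SE 0.12, adjusted p = 0.0159), with 0.93 in Ik1ER cells and 0.05 in MigR1 cells. For Atp2a3 it was 0.92 (SE 0.14, adjusted p = 0.027), with 0.86 in Ik1ER cells and -0.06 in MigR1 cells. In each case both Ik1ER 4OHT arrays lay beyond the other 6 arrays.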

How the results depend on the processing

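No difference of a member past 1 on the log2 scale changed sign under any alternative run. The count of such members in Ik1ER cells was 3 with each single array left out, and 4 members passed where the minimum was lowered to 0.5. It was 2 where dim genes were left out, which removes Kcna2, and 2 with the mean over probe sets. In MigR1 cells 0 members and 0 genes of the wider list were called under every alternative. For the wider list in Ik1ER cells, 2 to 3 genes were called higher and 1 to 3 lower with single arrays left out, the lowest without Ik1ER ethanol replicate 2. Only the arrays of the groups compared gave 1 lower, with fewer arrays fitted. Leaving out both replicate 2 arrays of Ik1ER, chosen after seeing the data, leaves 1 array per Ik1ER group. Its spread then comes from the MigR1 arrays alone, so that no count is given. With the replicate number as a block, 4 were called higher, among them Mcoln2 (limma adjusted p = 0.0164). For Mcoln2 the limma adjusted p was 0.0873 without the block and 0.217 with only the arrays of the groups compared. The labels do not say that replicate numbers pair arrays. Deviations from group means of same-numbered arrays correlated at 0.45 between the Ik1ER groups and 0.27 between the MigR1 groups, and at -0.07 to 0.1 between lines. Scn2b, Trpv2 and Atp2a3 were called under all alternatives that kept 2 arrays per group. With only the arrays of the groups compared their limma adjusted p was 0.00329, 0.0138 and 0.0143. Over all alternatives the difference was -1.79 to -1.13 for Scn2b, 0.85 to 1.00 for Trpv2 and 0.69 to 0.91 for Atp2a3. With 2 arrays per group, small differences of genes such as Stim1, Stim2, Orai1 and Trpm7 are within the reach of 1 array.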
